A study of Mus musculus with 18 samples.

Results

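Spry1, Spry2, Spry4, Spred1 and Spred2 encode inhibitors of the Ras-ERK pathway. Their RNA was followed here in organoids of mouse mammary epithelium grown with EGF, with Wnt factors or with both. The 5 genes were taken by symbol from the deposited annotation of 55536 genes. All 5 passed the filter on low counts. The study grew organoids from mammary glands of C57BL/6 mice aged 6 to 7 weeks, either RasGRP1-/- (KO) or wild type (WT), in matrigel for 5 days. ERW medium held EGF at 2.5 nM, the surrogate Wnt ligand NGS-Wnt at 0.1 nM and Rspo2 (R-spondin 2) at 8.3 nM, EGF medium held EGF alone, and RW medium held NGS-Wnt and Rspo2 alone, at the same concentrations. All groups shared a base of DMEM/F12 with insulin, transferrin and selenium. EGF and RW media differ both in EGF and in the Wnt factors NGS-Wnt and Rspo2, so their differences cannot be assigned to EGF alone. ERW and RW media differ in EGF alone. With 3 biological replicates in each of 6 groups, 18 libraries were counted, and each of 3 labelled batches holds 1 library of every group. The sources used here do not state which exons the KO allele lacks, which cells lack it, or whether glands of several mice were pooled.

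When a growth factor activates a receptor tyrosine kinase such as the EGF receptor, Ras is loaded with GTP and switches on the kinases Raf, MEK and ERK. Sprouty and Spred proteins share a cysteine-rich C-terminal domain that holds them at membranes, and they restrain the pathway between the receptor and Raf. Several of their genes are themselves switched on by ERK, so that the family is a textbook case of negative feedback. RasGRP1, the factor missing in KO, is an exchange factor that loads Ras with GTP when diacylglycerol is produced.

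Depth was similar in all libraries, at 24290097 to 31269899 counts, and mitochondrial genes took 1.28% to 2.54% of a library. Rasgrp1, the targeted gene, had 0 to 9 counts in each KO library and 6 to 28 in each WT library. KO lay below WT without overlap in EGF and RW media, while in ERW medium the highest KO library and the lowest WT library both had 6 counts. The difference over the 3 media, a log2 of -2.71 ± 0.72 (SE), was not called (edgeR adjusted p = 0.173). A call here means an adjusted p under 0.05 over all tested genes. Epithelial identity was clear from its markers: Epcam lay between 705 and 1160 CPM (TMM-scaled counts divided by library size) and Krt8 between 477 and 1080 CPM. KO replicate 2 in RW medium had the highest level of the 6 libraries in that medium for 4 of the 5 genes. KO replicate 1 in RW medium was the lowest there for 3 of the 5. KO replicate 2 in ERW medium was the highest of its medium for 3 of the 5. Differences of the 5 genes were also read without KO replicate 2 in RW medium. Where a printed log2 difference moved by over 1.5 times, the value without that library is given too. For other genes and for the lists of other genes this was not checked.

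Compared per length, as RPKM (CPM divided by the exon length in kilobases), Spry2 was the most abundant of the 5, with a median of 31.9 and a range of 17.7 to 45.0 RPKM over the 18 libraries. Spred1 came next with a median of 18.4 RPKM, followed by Spred2 with 14.0, Spry1 with 11.6 and Spry4 with 4.15 RPKM. Spry2 lay above Spred1 in 18 of 18 libraries. Spred1 lay above Spred2 in 15, Spred2 above Spry1 in 13 and Spry1 above Spry4 in 17 of 18, so that Spred2 and Spry1 were the neighbours least clearly apart. The other family genes were lower: Spred3, a family member without the Kit-binding region of its relatives, had a median of 2.35 RPKM, and Spry3 had a median of 0.0709 RPKM with 0 to 26 counts in a library. In bulk RNA a smaller share of cells of a type and less RNA per cell cannot be told apart, for these and all levels given here.

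**Figure D1:**
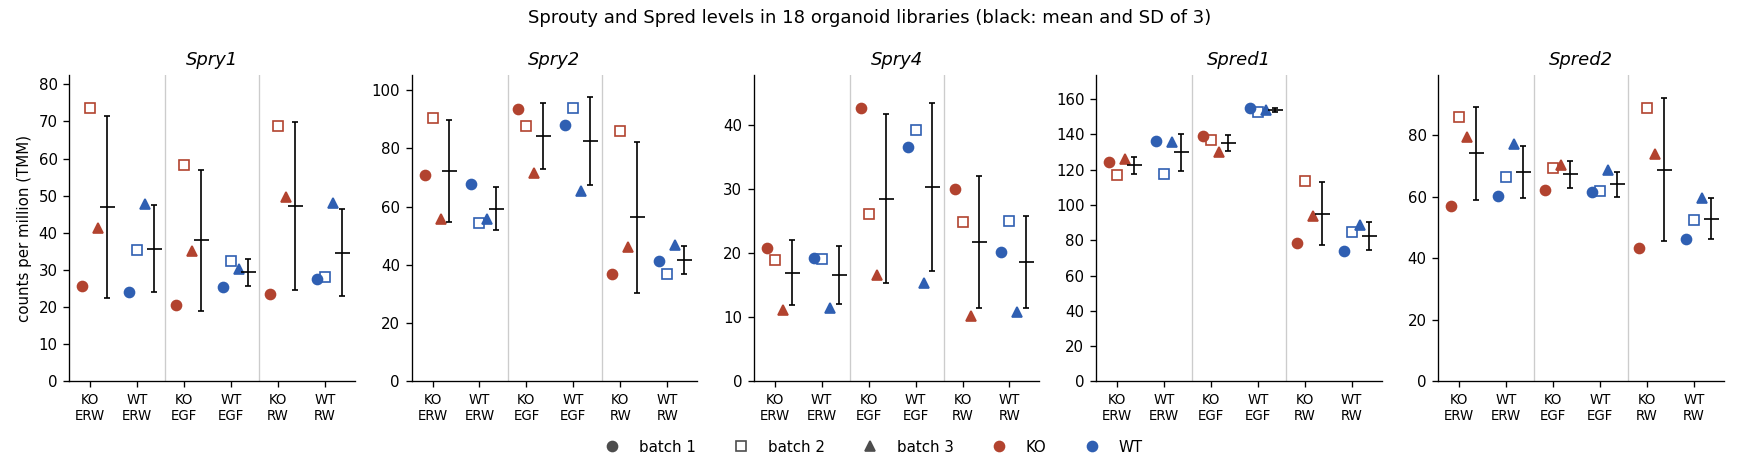
Level of each gene (CPM after TMM scaling, axes from 0) in the 18 libraries, by medium and genotype, with a symbol for each batch and the mean and SD of 3 libraries in black. Spred1 lay between 130.0 and 155 CPM in the EGF libraries and between 73.7 and 114 CPM in the RW libraries, while Spry4 was lowest in batch 3 in every group.

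Spred1 followed the medium more closely than any of the other 4 genes. The protein recruits the Ras GTPase-activating protein neurofibromin to the membrane through its N-terminal EVH1 domain, and loss of human SPRED1 causes Legius syndrome, a mild relative of neurofibromatosis. Its gene lies on chromosome 2 from 117121374 to 117182279 on the plus strand (GRCm38). The promoters of Spred1 and Spry2 are shown because these genes had the largest rise with EGF medium in WT among the 5. The start that RefSeq gives Spred1 lies upstream of the start in the files. Each is the 250 bases before the RefSeq transcription start (GRCm38.p6), with every GGAA, the core of sites for ETS factors, or its complement TTCC in capitals.
Spred1, chr2:117120821-117121070, plus strand: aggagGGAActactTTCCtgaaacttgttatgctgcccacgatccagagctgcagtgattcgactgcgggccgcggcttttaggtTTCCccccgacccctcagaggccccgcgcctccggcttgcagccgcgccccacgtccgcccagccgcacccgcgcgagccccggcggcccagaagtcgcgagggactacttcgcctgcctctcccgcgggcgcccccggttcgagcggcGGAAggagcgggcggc
Spry2, chr14:105896820-105897069, minus strand: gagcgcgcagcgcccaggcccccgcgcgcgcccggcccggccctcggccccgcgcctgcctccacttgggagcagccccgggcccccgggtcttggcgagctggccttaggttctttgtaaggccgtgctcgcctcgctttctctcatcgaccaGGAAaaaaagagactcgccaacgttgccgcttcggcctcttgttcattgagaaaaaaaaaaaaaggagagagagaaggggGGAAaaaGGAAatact
RefSeq sequences were matched for 4 of the 5 genes, which leaves out Spry4. The core GGAA occurred 4 times before Spred1 and 3 times before Spry2, against 7 times before Spred2 and 1 time before Spry1. At least 1 match stood in 93.5% of 32841 promoter windows of that length, with a median of 3. Longer motifs were searched on both strands: CCGGAAG for ETS factors, TGANTCA for AP-1 and CTTTGNT for TCF/LEF, which stood in 6.91%, 6.75% and 16% of windows. None of these letters occurred in the 4 windows, which says nothing about binding elsewhere. The Spred1 window holds 70.8% G and C and the Spry2 window 62.4%, against a median of 52.4%.

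In KO organoids Spred1 stood at 139, 137 and 130.0 CPM in EGF medium (replicates 1, 2 and 3), against 78.3, 114 and 93.6 CPM in RW medium. The KO groups did not overlap, and EGF was 1.43-fold higher (log2 0.51 ± 0.10 SE, edgeR adjusted p = 0.00236). In WT it stood at 155, 153 and 154 CPM in EGF medium, against 73.7, 84.7 and 88.8 CPM in RW medium. These groups did not overlap either, and EGF was 1.87-fold higher (log2 0.90 ± 0.10, adjusted p = 1.06e-05). The difference was positive in 3 of 3 batches in both genotypes, and it was 0.83, 0.27 and 0.47 on the log2 scale in KO and 1.07, 0.85 and 0.79 in WT in batches 1, 2 and 3. With all libraries of batch 1 or of batch 3 left out, the KO call was lost (adjusted p = 0.0569 and 0.061). WT libraries in EGF medium differed from one another by less than 3 CPM, an SD of 1.27 CPM around a mean of 154.

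With EGF beside the Wnt factors Spred1 rose as well. It had 124, 117 and 126 CPM in KO organoids in ERW medium, above all 3 KO libraries in RW medium (log2 0.37 ± 0.10, adjusted p = 0.0247). WT organoids in ERW medium had 136, 117 and 136 CPM, above all 3 WT libraries in RW medium (0.66 ± 0.10, adjusted p = 4.63e-04). Both comparisons share their RW libraries with those of the paragraph above. Without KO replicate 1 in RW medium the KO difference was 0.24. The call in KO was lost without the batch in the model (adjusted p = 0.126), with only these groups fitted (0.0801) and on leaving out KO replicate 1 or 3 in either medium (0.0746 to 0.166), while the call in WT was kept in all 14 alternatives. Set against EGF medium, ERW medium gave lower Spred1 in 3 of 3 batches of each genotype and the groups did not overlap, at log2 -0.14 ± 0.10 in KO (adjusted p = 0.423) and -0.24 ± 0.10 in WT (0.123), neither called.

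Spred2, the closest relative of Spred1 and likewise a partner of neurofibromin, was not called in any comparison of media. KO levels were 57.1, 85.8 and 79.6 CPM in ERW medium, 62.4, 69.4 and 70.4 CPM in EGF medium and 43.4, 89.0 and 73.9 CPM in RW medium. WT levels were 60.4, 66.6 and 77.1 CPM in ERW medium, 61.4, 62.0 and 68.8 CPM in EGF medium and 46.3, 52.6 and 59.7 CPM in RW medium. In WT the ERW and EGF groups lay above the RW group without overlap, by log2 0.37 ± 0.14 (adjusted p = 0.113) and 0.29 ± 0.14 (adjusted p = 0.201). Neither was called, although ERW against RW reached an adjusted p of 0.00384 when the WT libraries of those media alone were fitted. In KO all media overlapped, with EGF minus RW at log2 0.007 (95% interval -0.29 to 0.30), and at 0.21 (adjusted p = 0.34) without KO replicate 2 in RW medium.

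Spry2 encodes a Sprouty protein that is phosphorylated after growth factor binding and then occupies the ubiquitin ligase Cbl. It lies on chromosome 14 from 105891949 to 105896819 on the minus strand. In KO organoids it had 93.5, 87.8 and 71.4 CPM in EGF medium, against 36.9, 85.9 and 46.3 CPM in RW medium. Replicate 2 was level between these media and the groups overlapped, so that the log2 difference of 0.61 ± 0.24 was not called (adjusted p = 0.131). Without KO replicate 2 in RW medium it was 0.96 and was called (adjusted p = 0.00776). The authors' deposited table gives -0.60 for RW over EGF in KO with an adjusted p of 0.0377. In WT Spry2 had 88.0, 94.0 and 65.3 CPM in EGF medium, against 41.2, 37.0 and 46.7 CPM in RW medium, with no overlap and a log2 difference of 0.95 ± 0.24 (adjusted p = 0.0183). This call did not survive leaving out WT replicate 1 or 2 in either medium (adjusted p of 0.0606 to 0.0947), and the difference then was 0.76 to 0.94. It was also lost with no filter on low counts (0.0558).

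In ERW medium the mean of Spry2 lay between those of the other media. KO organoids had 71.0, 90.4 and 55.6 CPM and WT organoids 67.8, 54.3 and 55.8 CPM. Set against RW medium these were log2 0.37 ± 0.24 in KO (adjusted p = 0.388) and 0.50 ± 0.24 in WT (0.257), higher in 3 of 3 batches of each genotype but not called, and only the WT groups did not overlap. Set against EGF medium they were -0.24 ± 0.24 in KO (0.604) and -0.45 ± 0.24 in WT (0.249). The KO difference from RW medium was 0.74 and called (adjusted p = 0.0418) without KO replicate 2 in RW medium. The WT groups were called in both comparisons when fitted without the other groups (0.00416 against RW and 0.0303 against EGF).

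Spry4, which restrains Ras activation by several growth factor receptors, was the only one of the 5 called between ERW and EGF media. The gene spans 38586268 to 38601268 on the minus strand of chromosome 18. In KO organoids it had 20.7, 18.9 and 11.2 CPM in ERW medium, against 42.7, 26.1 and 16.6 CPM in EGF medium. WT organoids had 19.2, 19.1 and 11.4 CPM in ERW medium, against 36.5, 39.2 and 15.3 CPM in EGF medium. In each genotype the groups overlapped because batch 3 was low throughout, yet ERW was lower in 3 of 3 batches. Spry4 fell in ERW medium relative to EGF medium by log2 -0.71 ± 0.17 in KO (adjusted p = 0.0123) and -0.81 ± 0.17 in WT (adjusted p = 0.00385). Without the batch in the model neither was called (0.541 in KO and 0.384 in WT), and the KO call was also lost on leaving out KO_EGF replicate 1 or 3 or KO_ERW replicate 1 or 2 (0.0505 to 0.088).

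Relative to RW medium, Spry4 rose in EGF medium in WT, where RW libraries had 20.2, 24.9 and 10.8 CPM (log2 0.67 ± 0.17, adjusted p = 0.0105, and 0.561 without the batch). Leaving out WT_EGF replicate 2 or WT_RW replicate 1 ended that call (0.0787 and 0.0741). KO libraries had 30.0, 24.9 and 10.2 CPM in RW medium, and the KO difference of 0.43 ± 0.17 was not called (adjusted p = 0.111), except without KO_EGF replicate 2, where it was 0.61 (adjusted p = 0.0333). ERW and RW media were within the spread of each other, at -0.28 ± 0.17 in KO (95% interval -0.64 to 0.08) and -0.13 ± 0.17 in WT (-0.49 to 0.23).

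Spry1, known from the mammary stroma as a regulator of EGF receptor-dependent signals to the epithelium, was not called in any comparison. Its KO levels were 25.6, 73.7 and 41.4 CPM in ERW medium, 20.7, 58.3 and 35.1 CPM in EGF medium and 23.5, 68.7 and 49.6 CPM in RW medium. Its WT levels were 24.2, 35.3 and 47.8 CPM in ERW medium, 25.4, 32.3 and 30.4 CPM in EGF medium and 27.5, 28.1 and 48.1 CPM in RW medium. Replicate 1 was the lowest in every group. EGF minus RW was -0.30 in KO (95% interval -0.96 to 0.35) and -0.23 in WT (-0.90 to 0.43). The KO value was -0.11 without KO replicate 2 in RW medium. The predicted gene Gm42922 overlaps the start of Spry1 on the opposite strand, with 297 counts in all libraries together. Whether the counting used strand is not given in the sources used here.

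**Figure D2:**
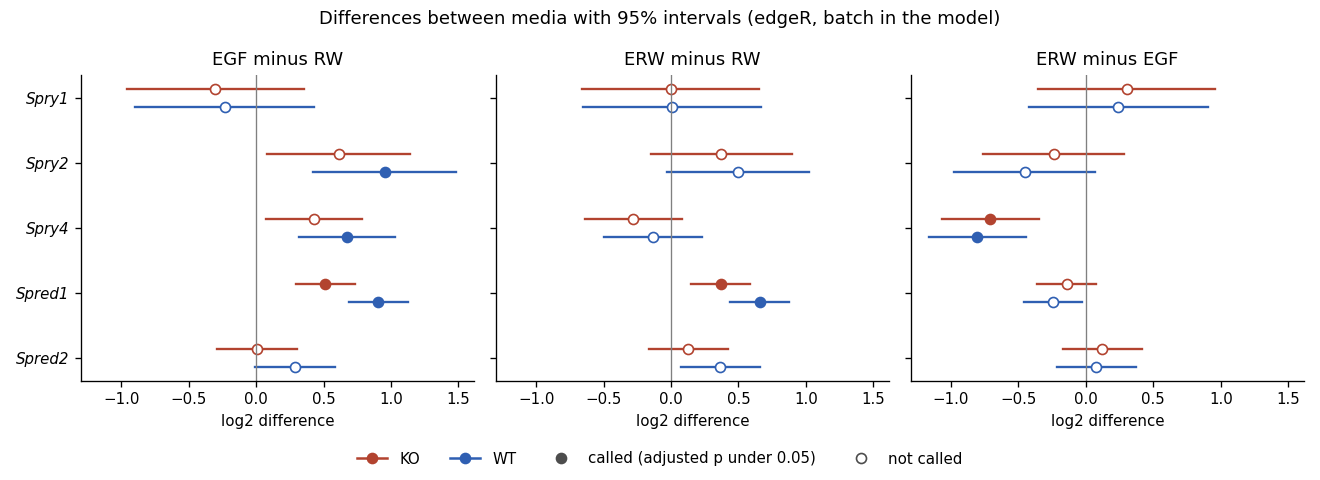
Difference between media for each gene (log2, edgeR fit with the batch in the model) with its 95% interval, KO above WT for each gene, filled where called at an adjusted p under 0.05. Spred1 was called in EGF minus RW and in ERW minus RW in both genotypes, and Spry4 was called below 0 in ERW minus EGF in both.

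Counted over the 5 genes, EGF against RW medium called 1 higher in KO, where 13.5% of 17092 tested genes were called and 7.55% were higher, and 3 higher in WT, where 15.4% were called and 8.52% were higher. None was lower. The median log2 difference of the 5 was 0.43 in KO and 0.67 in WT, beside -0.02 and -0.01 over all tested genes. ERW against RW medium called 1 higher in KO (12.7% of all genes called, 6.1% higher) and 1 higher in WT (10.7% called, 4.92% higher), with medians of 0.13 (0.34 without KO replicate 2 in RW medium) and 0.37. ERW against EGF medium called 1 lower in KO (11.6% called, 6.48% lower) and 1 lower in WT (15.6% called, 8.78% lower), with medians of -0.14 and -0.24. Groups without overlap numbered 1 of 5 in KO and 3 of 5 in WT for EGF against RW, beside 16.3% and 22.3% of all genes, and 1 and 3 of 5 for ERW against RW, beside 14.4% and 17.5%. For ERW against EGF there was 1 of 5 in each genotype, beside 14.8% of all genes in KO and 22.6% in WT.

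The 5 genes differed in what their variance followed. Over the 18 libraries the medium held 82.6% of the variance of log2 CPM of Spred1 and 54.6% of that of Spry2, against a median of 21.1% over all tested genes, and only 1.89% of genes had a larger medium share than Spred1. The medium held 26% for Spry4, 15.3% for Spred2 and 5.12% for Spry1. The batch held 0.947% for Spred1 and 9.42% for Spry2, but 65.4% for Spry4, 55.1% for Spry1 and 41.1% for Spred2, against a median of 30.6%. By batch, Spry4 averaged 28.2 ± 9.82, 25.5 ± 7.39 and 12.6 ± 2.68 CPM in batches 1, 2 and 3 (SD, n = 6 each). Spry1 averaged 24.5 ± 2.32, 49.4 ± 19.9 and 42.0 ± 7.90 CPM. The genotype held 0.086% for Spry4 to 9.74% for Spred2, against a median of 2.01%.

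**Figure D3:**
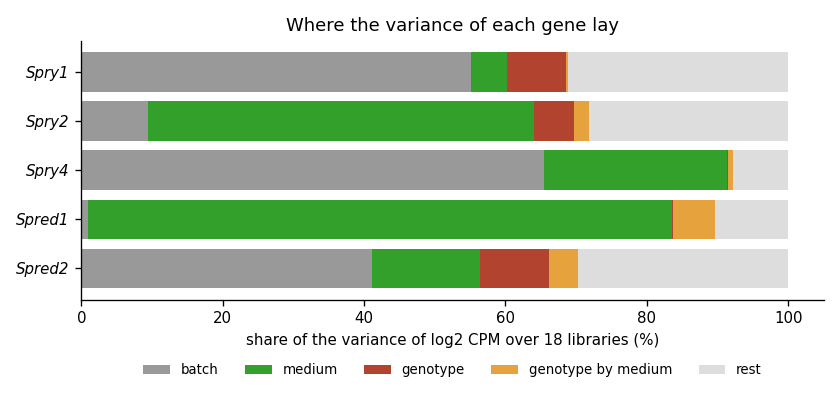
Share of the variance of log2 CPM over 18 libraries that lay between batches, media and genotypes, in the genotype-by-medium term and in the rest (%), per gene. The medium held 82.6% for Spred1 and the batch 65.4% for Spry4.

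KO and WT were compared in each medium, which asks whether the inhibitors of Ras-ERK differ where a Ras exchange factor is missing. None of the 5 genes was called in any medium or over the 3 media together, by edgeR or by DESeq2. Few genes were called at all: 0.0819% in ERW medium, 0.0702% in EGF medium, 0.0819% in RW medium and 0.339% over the media. Before adjustment 889 of the 17092 tested genes passed 0.05 in edgeR in RW medium and 1842 over the media. Among the 5 genes 1 did, Spred2, in both. In RW medium its difference was log2 0.35 ± 0.14 (edgeR adjusted p = 0.894), and over the media it was 0.18 ± 0.08 (edgeR adjusted p = 0.446). Without KO replicate 2 in RW medium these were 0.14 and 0.11, and with all libraries of batch 2 left out they were 0.12 and 0.04. Over the 3 media the difference was 0.31 ± 0.18 for Spry1, 0.23 ± 0.14 for Spry2, 0.04 ± 0.10 for Spry4 and -0.02 ± 0.06 for Spred1. For Spred1 the 95% interval of that difference was -0.15 to 0.10, and for Spry1 it was -0.08 to 0.69. Without KO replicate 2 in RW medium the difference over the media was 0.11 for Spry2 and -0.08 for Spred1, and without batch 2 it was -0.07 for Spry1, 0.02 for Spry2, 0.16 for Spry4 and -0.08 for Spred1, none of them called.

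Replicate 2 set the KO side of Spry1 and, outside EGF medium, of Spry2. Spry1 was higher in KO than in WT by log2 1.06 in ERW medium, 0.85 in EGF medium and 1.29 in RW medium in batch 2, whereas batches 1 and 3 ranged from -0.30 to 0.21. Spry2 was higher in KO by 0.74 in ERW medium and 1.21 in RW medium in batch 2, while the differences of batches 1 and 3 in these media ranged from -0.16 to 0.07. Spred2 showed 0.76 in batch 2 in RW medium, beside -0.09 and 0.31 in batches 1 and 3.

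**Figure D4:**
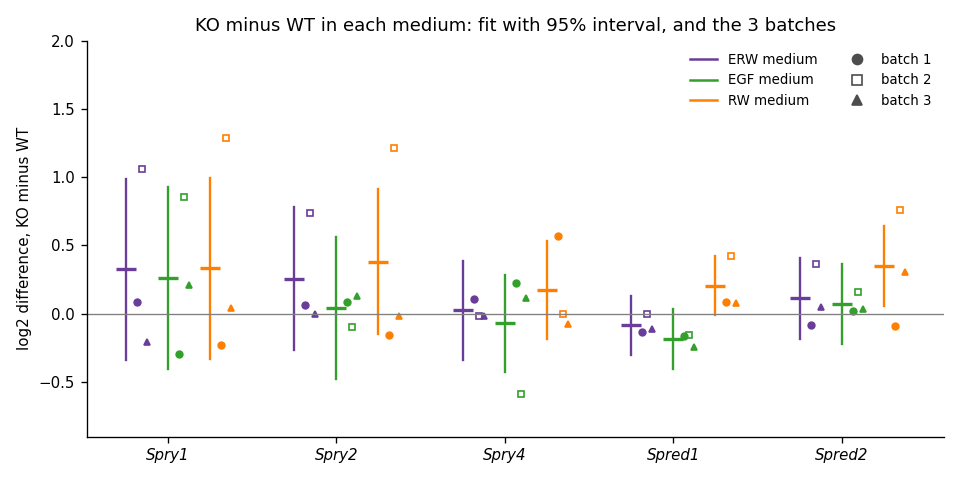
KO minus WT (log2) of each gene in each medium, with the edgeR estimate and its 95% interval as lines and the difference within each batch as symbols. In RW medium the open square of batch 2 reached 1.29 for Spry1 and 1.21 for Spry2, while no estimate was called.

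Spred1 was the only one of the 5 whose KO libraries lay below WT in all 3 batches in one medium and above in all 3 in another. In EGF medium KO had 130.0 to 139 CPM against 153 to 155 CPM in WT, without overlap (log2 -0.19 ± 0.10, adjusted p = 1), where 4.3% of all genes did not overlap. In ERW medium KO had 117 to 126 CPM and WT 117 to 136 CPM (-0.08 ± 0.10, adjusted p = 0.982), where 4.34% did not overlap. In RW medium KO averaged 95.1 ± 17.7 CPM against 82.4 ± 7.78 CPM in WT (SD, n = 3 each), with overlap, where 4.12% of all genes did not overlap. That difference was log2 0.21 ± 0.10 (edgeR adjusted p = 0.894). It was 0.09, 0.42 and 0.08 in batches 1, 2 and 3, and 0.04 without KO replicate 2. The response to EGF against RW medium was thus smaller in KO by log2 0.39 ± 0.15, at an unadjusted p of 0.0157 and an edgeR adjusted p of 1. It was 0.23 without KO replicate 2 in RW medium. This difference was read from the same libraries as the pattern of signs, so it is not separate evidence for that pattern. In that test of the response 0% of genes were called by edgeR, with 356 genes at an unadjusted p under 0.05 and 33 genes called by DESeq2, and in the authors' deposited table the Spred1 term had an adjusted p of 1. For the responses of Spry2, Spry4, Spry1 and Spred2 to EGF against RW the KO minus WT differences were -0.34 ± 0.34, -0.24 ± 0.24, -0.07 ± 0.43 and -0.28 ± 0.20, each with an adjusted p of 1. Without KO replicate 2 in RW medium these were -0.0017 for Spry2, 0.12 for Spry1 and -0.07 for Spred2.

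Spred1 ends 97714 bases from Rasgrp1, and Fam98b lies between them. Of 7 genes within 1 Mb of Rasgrp1 that passed the filter, Rasgrp1 and Spred1 included, none was called in any medium or over the media by edgeR. Of all tested genes 0.339% were called over the media. Over the media Fam98b had 40.2 CPM in KO and 40.2 CPM in WT (log2 -0.006 ± 0.06), and Spred1 had 118 CPM in KO and 122 CPM in WT. Thbs1, the thrombospondin gene, averaged 1390 CPM in KO and 944 CPM in WT (0.42 ± 0.15, adjusted p = 0.342), and Gpr176 averaged 7.67 CPM in KO and 9.74 CPM in WT (-0.52 ± 0.16, adjusted p = 0.264). Both were named after their values were seen.

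**Figure D5:**
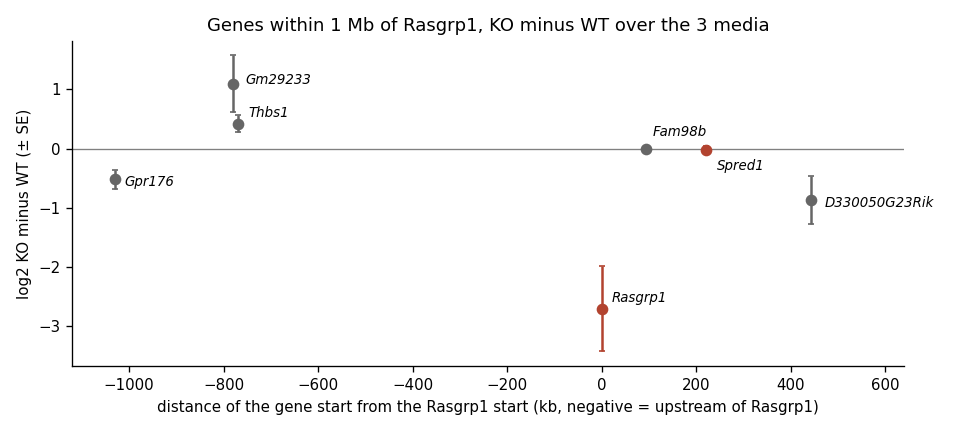
KO minus WT over the 3 media (log2, ± SE) of the 7 genes within 1 Mb of Rasgrp1 that passed the filter, by the distance of each gene's start from that of Rasgrp1 (kb). Fam98b and Spred1, the nearest genes on the side downstream of Rasgrp1, sat at -0.006 and -0.02, and Rasgrp1 itself at -2.71.

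Other genes that ERK is known to induce, or that feed back on the pathway, were read beside the 5. Of 17 such genes 6 rose and 2 fell in EGF against RW medium in KO, and 7 rose and 2 fell in WT, with medians of 0.67 and 0.88. Of all tested genes 13.5% were called there in KO and 15.4% in WT. Etv1 (log2 3.51 ± 0.20 in KO and 3.83 ± 0.20 in WT), Etv5 (3.38 ± 0.26 and 3.51 ± 0.26) and Etv4 (1.90 ± 0.23 and 1.77 ± 0.23), ETS factors of the PEA3 group, rose far more than Spred1. Dusp6, the ERK phosphatase, rose in WT (2.13 ± 0.50) and stood at 1.42 ± 0.49 in KO (adjusted p = 0.0868). Il17rd, which encodes the receptor-level inhibitor Sef, fell instead, by -1.53 ± 0.19 in KO and -1.20 ± 0.19 in WT. It is a feedback inhibitor as the Sproutys are. The other gene that fell was Ccnd1, the cyclin D1 gene, by -1.32 ± 0.09 in KO and -1.27 ± 0.09 in WT. These media differ in the Wnt factors as well as in EGF. In ERW against RW medium, which differ in EGF alone, 3 of the 17 rose and 2 fell in KO. In WT 5 rose and 1 fell there, and the medians were 0.24 in KO and 0.45 in WT. The share of all tested genes called was 12.7% in KO and 10.7% in WT.

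With the Wnt factors added to EGF some feedback genes were lower and others higher. In ERW against EGF medium 2 of the 17 rose and 2 fell in each genotype. The share of all tested genes called was 11.6% in KO and 15.6% in WT. Etv1 fell by -0.62 ± 0.17 in KO and -0.53 ± 0.17 in WT, and the EGF receptor inhibitor Lrig1 fell by -0.70 ± 0.16 and -0.69 ± 0.16. Il17rd rose by 0.92 ± 0.19 in KO and 0.72 ± 0.19 in WT, and Ccnd1 rose by 0.81 ± 0.09 and 0.80 ± 0.09.

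The pathway's own components were read next. Of 22 genes from receptor to ERK, 5 rose and 1 fell in KO and 4 rose and 2 fell in WT in EGF against RW medium, with medians of 0.05 and 0.02. Of all tested genes 13.5% were called there in KO and 15.4% in WT. The FGF receptor gene Fgfr1 rose by 1.49 ± 0.12 in KO and 1.51 ± 0.12 in WT, whereas Fgfr2 fell by -0.56 ± 0.14 and -0.51 ± 0.14. The MEK gene Map2k1 rose by 0.59 ± 0.09 and 0.62 ± 0.09, and the Ras GTPase-activating protein gene Rasa1 by 0.47 ± 0.07 and 0.60 ± 0.07. Of 12 partners and regulators of Sprouty and Spred proteins, 1 rose and 2 fell in KO and 2 rose and 2 fell in WT. The shares of all tested genes are those given above for this comparison. Nf1, which encodes the Spred partner neurofibromin, rose by 0.62 ± 0.12 in KO and 0.68 ± 0.12 in WT. The caveolin gene Cav1 fell by -0.97 ± 0.16 and -0.79 ± 0.16, and the adaptor gene Gab1 by -0.53 ± 0.16 and -0.80 ± 0.16. Spred3 rose in WT in the same comparison (0.74 ± 0.23, adjusted p = 0.0347) and stood at 0.45 ± 0.23 in KO (0.237). In ERW against RW medium 3 of the 22 components rose and 1 fell in each genotype. Of the 12 partners and regulators 0 rose and 2 fell in each genotype there. The share of all tested genes called was 12.7% in KO and 10.7% in WT.

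Markers of other cell types differed between media as well. In ERW against EGF medium, where Spry4 fell, fibroblast markers fell in 5 of 8 in KO and 6 of 8 in WT, endothelial markers in 4 of 6 in KO and 6 of 6 in WT, and adipocyte markers in 5 of 6 in KO and 6 of 6 in WT. Of all tested genes 11.6% were called there in KO and 15.6% in WT, and 6.48% and 8.78% were lower. The summed level of the fibroblast markers was 499.9 to 1134 CPM in KO_ERW against 750.6 to 2142 CPM in KO_EGF, and 402 to 1177 CPM in WT_ERW against 914 to 2876 CPM in WT_EGF. The endothelial markers summed to 134 to 191 CPM in KO_ERW against 255 to 365 CPM in KO_EGF, and to 73.2 to 169 CPM in WT_ERW against 338 to 410 CPM in WT_EGF. Adipocyte markers summed to 43.2 to 225 CPM in KO_ERW against 188 to 674 CPM in KO_EGF, and to 39.8 to 267 CPM in WT_ERW against 300.0 to 749 CPM in WT_EGF. The endothelial sums did not overlap between these media in either genotype, while the fibroblast sums did. Of the epithelial lists, basal markers fell in 3 of 8 in each genotype and rose in 1 of 8 in KO and 2 of 8 in WT, with median log2 differences of -0.35 and -0.46, and luminal markers fell in 2 of 10 and rose in 1 of 10 in each. The part of these cells in the difference of Spry4 was not tested. None of the fibroblast, endothelial or adipocyte markers was at 0 in any group.

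Beside the rise of Spred1 in ERW against RW medium the same lists fell, endothelial and adipocyte markers in 6 of 6 each in both genotypes and fibroblast markers in 3 of 8 in KO and 4 of 8 in WT. Of all tested genes 12.7% were called there in KO and 10.7% in WT. The endothelial sum in RW medium was 237 to 559 CPM in KO and 241 to 363 CPM in WT. In the same medium the adipocyte sum was 217 to 1117 CPM in KO and 310 to 1103 CPM in WT, and the fibroblast sum was 958 to 1916 CPM in KO and 660 to 2443 CPM in WT. Basal markers fell in 6 of 8 in each genotype (median log2 differences of -0.69 in KO and -0.61 in WT), and luminal markers rose in 4 of 10 in KO and 3 of 10 in WT and fell in 1 of 10 in each. Basal markers summed to 4036 to 5702 CPM in KO_ERW against 6513 to 7686 CPM in KO_RW, and to 4460 to 5536 CPM in WT_ERW against 6365 to 8418 CPM in WT_RW. The part of these cells in the rise of Spred1 in ERW medium was not tested. In EGF against RW medium none of the 6 endothelial or the 6 adipocyte markers was called in either genotype, and fibroblast markers rose in 1 of 8 in KO and 3 of 8 in WT. The share of all tested genes called in that comparison was 13.5% in KO and 15.4% in WT. Basal markers fell in 3 of 8 in each genotype there and rose in 1 of 8 in KO, and luminal markers rose in 5 of 10 in KO and in 4 of 10 in WT, where 1 fell. Basal markers summed to 3817 to 5042 CPM in KO_EGF against 6513 to 7686 CPM in KO_RW, and to 3945 to 4608 CPM in WT_EGF against 6365 to 8418 CPM in WT_RW. The part of this shift in the levels of Spred1 and Spry2 was not tested. Markers of myeloid cells and lymphocytes summed to 5.69 to 35.4 CPM per library over all groups, with Cd3e at 0 in 5 of 6 groups.

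The genes whose profiles over the 18 libraries came nearest to each of the 5 were read from the root mean square difference of log2 CPM, each centred on its own mean, among 11153 genes with at least 4 CPM on average. Spred1 was closest to Tspan7 (0.134), the actin nucleator gene Spire1 (0.143) and Ypel5 (0.148), where the median gene stood at 0.411. Spry2 was closest to Cnksr1, which encodes a scaffold of Ras signalling (0.217), Gch1 (0.231) and Vasn (0.235), with a median of 0.521. For Spry4 these were Syne1 (0.268), Nav1 (0.275) and Fryl (0.277), with a median of 0.682. For Spry1 they were Frat2 (0.174), Klf11 (0.194) and Ccdc120 (0.206), with a median of 0.588, and for Spred2 Rapgef6 (0.127), Eif4e (0.131) and Gorab (0.134), with a median of 0.362. This distance grows with a gene's own spread. A gene with no change at all would stand at 0.332 from Spred1, 0.454 from Spry2 and 0.619 from Spry4. From Spry1 it would stand at 0.539 and from Spred2 at 0.271. Among the 5 themselves Spry2 and Spred1 were the nearest pair (0.267). Spry1 and Spry4, which had the largest spread of their own, were the farthest apart (0.985).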

How the data were processed

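The authors deposited read counts per Ensembl gene for 18 libraries. Per the submitters' processing notes STAR, DESeq2 and GRCm38 were used. Their versions, the annotation, the counter and its strand setting were not stated there or in the labels. The second deposited table holds, per the file headers, counts divided by 1 size factor per library (a normalized signal), variance-stabilized values on a log2 scale, which no test here used, and the authors' log2 fold changes with p-values adjusted for each comparison, from a model with a batch term. Per the labels, each library took 100 ng of RNA and was read as single ends of 50 bases.

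Counts were filtered with filterByExpr (minimum count 10, minimum total 15), which kept 17092 of 55536 genes, normalized by TMM and fitted in edgeR 4.0.16 under R 4.3.3, with 1 mean per group and the batch as a term. The robust quasi-likelihood F-test, two-sided, was adjusted by Benjamini-Hochberg over all genes kept within each of 13 contrasts, with an adjusted p under 0.05 as a call. The batch is a label, equal to the replicate number, so same-numbered libraries are paired. Their deviations from the group means correlated at r = 0.265 to 0.642 over genes. With 3 libraries against 3 an exact permutation test cannot go below p = 0.1, so calls rest on the shared spread. Intervals are 95%. RPKM divides CPM by the union of exons in GENCODE M21. The tests were tried on counts simulated from the fitted model with known changes in WT_EGF, which checks the code and not whether the model suits these data. The series text calls the replicates biological, but no label says that they came from separate animals, so p-values measure the spread between these samples.

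The genes, lists, naming rule and the batch term were chosen with earlier results of these data known, the promoter motifs after these results were seen. Named are the 5 genes, their relatives, Rasgrp1, up to 4 called genes with the largest change of each list in a comparison, and the 3 nearest profiles of each gene. A gene named for 1 genotype is given in both. Ccnd1 in EGF against RW medium was named outside this rule, as the other gene of its list that fell. Alternatives were no batch term, DESeq2 size factors, no filter, DESeq2 1.42.0, only the groups compared, and each library left out, with each whole batch left out added after seeing the data.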

Additional observations from a re-analysis of the deposited data

Results flagged for a closer look

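Spred1 is singled out for its pattern of signs. KO lay below WT in 3 of 3 batches in EGF medium and in ERW medium. KO lay above WT in 3 of 3 batches in RW medium. How often such a pattern arises by chance, or over all genes, was not tested. The differences in response given next were read from the same libraries. They restate the pattern that Spred1 was picked for and are not separate evidence. In ERW medium batch 2 was level, at a log2 of -0.0029. The response to EGF against RW medium was lower in KO, by a log2 of -0.39 ± 0.15 (edgeR, unadjusted p = 0.0157, adjusted p = 1), and the response to ERW against RW medium by -0.29 ± 0.15 (unadjusted p = 0.0633, adjusted p = 1). The first ranged from -0.52 to -0.23 and the second from -0.41 to -0.13 over 20 alternatives each, with none called, and both were smallest without KO replicate 2 in RW medium.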

How the results depend on the processing

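None of the log2 differences of a called gene changed sign under any alternative. Of the 5 genes, EGF against RW medium called 1 in KO and 3 in WT, ERW against RW medium called 1 in each genotype, and ERW against EGF medium 1 in each. Without the replicate block (the batch term) the count was 0 for ERW against RW in KO and 0 for ERW against EGF in both KO and WT. DESeq2 called 2 for EGF against RW in KO, where it called 2816 of all genes (2306 by edgeR). With only the groups compared in the fit, the count was 0 for ERW against RW in KO, 3 for ERW against RW in WT and 2 for ERW against EGF in WT. Over all genes those fits called 1661, 2651 and 2446, against 2179, 1835 and 2672 with all groups fitted. Leaving out 1 library, or a whole batch, gave 0 to 2 for EGF against RW in KO, 1 to 3 in WT, 0 to 2 for ERW against RW in KO and 0 to 1 for ERW against EGF in KO. The cause of these shifts was not tested. KO against WT called none of the 5 under any alternative, and the calls of Spred1 in WT, EGF or ERW against RW, held in all 14.

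Over all genes, removing the replicate block cut the calls for EGF against RW to 729 in KO (2306 with it) and 888 in WT (2639), for ERW against RW to 439 (2179) and 404 (1835), and for ERW against EGF to 115 (1991) and 369 (2672). For KO against WT it gave 6 in ERW medium (14), 5 in RW medium (14) and 22 over the media (58). DESeq2 gave 68, 62 and 77 in ERW, EGF and RW media (14, 12 and 14 by edgeR), 224 over the media, and 33, 44 and 41 for the differences in response to EGF against RW, ERW against RW and ERW against EGF (0 each). The groups compared alone gave 23, 7 and 1 in ERW, EGF and RW media. Leaving out 1 library or a batch gave 906 to 2008 and 969 to 2557 for EGF against RW in KO and WT, 945 to 1937 and 785 to 1415 for ERW against RW, and 366 to 1472 and 653 to 2700 for ERW against EGF. For KO against WT it gave 4 to 12, 5 to 12 and 3 to 13 in ERW, EGF and RW media, and 19 to 90 over the media. Depth limits Spry3 and Rasgrp1, with at most 26 and 28 counts a library.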
